A study of Glycine max with 36 samples.

Results

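Small RNA hits on 4 chalcone synthase genes of soybean (Glycine max) that lie outside the gene cluster of chromosome 8 are described here: Glyma.01G091400 on chromosome 1, Glyma.02G130400 on chromosome 2, Glyma.09G075200 on chromosome 9 and Glyma.19G105100 on chromosome 19. They were taken from a given list of identifiers, as the genes on it that are neither on chromosome 8 nor the copies CHS7 (Glyma.01G228700) and CHS8 (Glyma.11G011500). They are 4 of the 20 genes that the deposited table matches to the Arabidopsis chalcone synthase gene TT4, among 52872 genes in all. The others are CHS7, CHS8, 12 genes on chromosome 8 and 2 genes that the list does not hold, Glyma.05G153200 and Glyma.06G118550. The coding sequences of the 4 genes have 1167 bases, or 1176 in Glyma.19G105100, and their cDNAs have 1496, 1457, 1452 and 1568 bases in the order above.

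Chalcone synthase condenses a coumaroyl and several malonyl units into a chalcone, the entry step to flavonoids, isoflavones and the anthocyanins that colour a seed coat. In soybean the I locus, itself a cluster of chalcone synthase genes in inverted order, gives rise to small interfering RNAs that act on chalcone synthase transcripts elsewhere in the genome, and the coat stays yellow. Small interfering RNAs are cut from double-stranded RNA and occur on both strands, whereas fragments of a messenger RNA are sense only.

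The series asks in which tissues and genotypes chalcone synthase small RNAs occur, with 36 small RNA libraries of total RNA from hand-dissected seed parts and from seedling and shoot tissues of greenhouse plants. Immature seed coats gave 14 libraries. Williams (i-i R T, yellow coat with black hilum) has 3, from seeds of 100 to 200, 400 to 500 and 200 to 300 mg fresh weight, named below by weight. Clark 63 (i-i R T) and a Clark isoline, UC413 (i-i R t, mi G, minute hilum and defective coat, called Clark mi), have 1 each, from whole coats of seeds of 50 to 100 mg. Richland (I R t, yellow) and T157 (i R t, imperfect black) each have 3 from seeds of 5 to 6 mg and 1 from seeds of 10 to 25 mg. The Williams 44 mutation (i R T, black) has 1, from seeds of 50 to 75 mg. The other tissues all carry i-i. They are a dry Williams seed coat and, in 21 further libraries, Williams dry and immature cotyledon, embryo axes, seedling cotyledons of stages 1 to 7 and leaf, and vegetative buds and shoot tips of Clark standard, five-foliate (Lf1) and glabrous (P1) plants. The I, i-i and i groups also differ in cultivar. The T allele differs within the i-i and i groups, while the I group, Richland alone, carries t. The labels do not say whether numbered libraries came from separate plants, so every p-value refers to the spread between libraries alone. Between libraries with the same label that spread may be technical. Outside the comparison of Richland with T157, a group pools seed weights, stages, tissues or cultivars, which are part of its spread.

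Libraries held 9.50 to 58.5 M reads, and levels are given as RPM, the hits on a gene divided by the M reads of the library. A count of 3 hits, used as the detection floor, corresponds to 0.0513 to 0.316 RPM. The stage 2 seedling cotyledon library stands apart, with 0.965 M gene hits on 1122 genes against 5.74 to 85.3 M in the others, and results that use it are given also without it. Summed hits of 45 genes named for green tissue (light-harvesting and Rubisco small subunit proteins) were highest in leaf, at 112 RPM, and were 4.06 to 28.0 RPM in the immature seed coats. A list of seed storage and late embryogenesis genes did not set cotyledons apart, at 209 and 222 RPM in dry and immature cotyledon against 217 RPM in leaf. These are hits of small RNAs and not transcript levels.

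The table gives a read to every gene it matches. For each of the 4 genes unique hits equalled total hits in 36 of 36 libraries, so the unique column does not separate paralogs, and a value of a single gene can include reads that another family member shares. In these bulk samples fewer cells of a type and less small RNA per cell cannot be told apart.

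All 4 genes had their highest small RNA levels in seed coats of the yellow genotypes, but Glyma.19G105100 was within the range of the other 3 or near it only in Williams coats. Glyma.02G130400 had 1463 RPM in the Williams coat of 100 to 200 mg, 483 RPM at 200 to 300 mg and 209 RPM at 400 to 500 mg. In Clark 63 it had 1686 RPM, its highest level of the series, and in Clark mi 826 RPM. The 5 to 6 mg Richland coats held 147, 94.9 and 219 RPM of Glyma.02G130400 (153 ± 62.1, mean ± SD, n = 3). The larger Richland seeds, of 10 to 25 mg, gave 555 RPM. With i, the level was 9.60, 6.89 and 10.5 RPM in the 5 to 6 mg T157 coats (9.01 ± 1.89, n = 3), 23.2 RPM in the larger T157 seeds and 28.7 RPM in Williams 44. Every coat with I or i-i lay above every coat with i.

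Glyma.01G091400 had 1220, 194 and 246 RPM in the Williams coats of 100 to 200, 400 to 500 and 200 to 300 mg. It had 1162 RPM in Clark 63 and 627 RPM in Clark mi. The 5 to 6 mg Richland coats held 156, 98.3 and 224 RPM (160 ± 63.1, n = 3) and the larger Richland seeds 539 RPM. The coats with i were lower without overlap. T157 held 15.3, 11.7 and 16.2 RPM in its small seeds (14.4 ± 2.39, n = 3) and 44.5 RPM in the larger ones, close to the 44.6 RPM of Williams 44.

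Glyma.09G075200 had nearly the same order of libraries in the yellow coats, with 1117, 167 and 207 RPM in the Williams coats of 100 to 200, 400 to 500 and 200 to 300 mg. It had 1044 RPM in Clark 63, 532 RPM in Clark mi and 493 RPM in the 10 to 25 mg Richland coat. The 5 to 6 mg Richland coats held 150, 94.4 and 215 RPM (153 ± 60.2, n = 3), close to Glyma.01G091400 and Glyma.02G130400 in each of these libraries. In T157 it held 10.1, 10.1 and 12.7 RPM in small seeds (10.9 ± 1.51, n = 3) and 10.3 RPM in the larger ones, so it did not share the higher level of Glyma.01G091400 and Glyma.02G130400 in the larger T157 seeds. In Williams 44 it held 32.9 RPM, above every T157 library.

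Glyma.19G105100 had 1506 RPM in the Williams coat of 100 to 200 mg, 438 RPM at 200 to 300 mg and 128 RPM at 400 to 500 mg. It had 325 RPM in Clark 63 and 149.4 RPM in Clark mi. In Richland, which carries I, it had 5.69, 2.98 and 8.97 RPM in small seeds (5.88 ± 3.00, n = 3) and 17.3 RPM in the larger ones. The 4 Richland coats thus lay below all 5 coats with i-i, while they still lay above the coats with i. These held 0.859, 1.18 and 0.697 RPM in T157 of 5 to 6 mg (0.911 ± 0.244, n = 3), 0.288 RPM in T157 of 10 to 25 mg and 1.01 RPM in Williams 44. Per kilobase of cDNA, Glyma.19G105100 held 960 RPM and Glyma.01G091400 815 RPM in the Williams coat of 100 to 200 mg, but 1.90 to 5.72 RPM against 65.7 to 150 RPM in the 5 to 6 mg Richland coats. I and i-i coats differ in cultivar and in seed weight, so the allele cannot be told apart from these, and the difference between I and i-i was not tested.

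**Figure D1:**
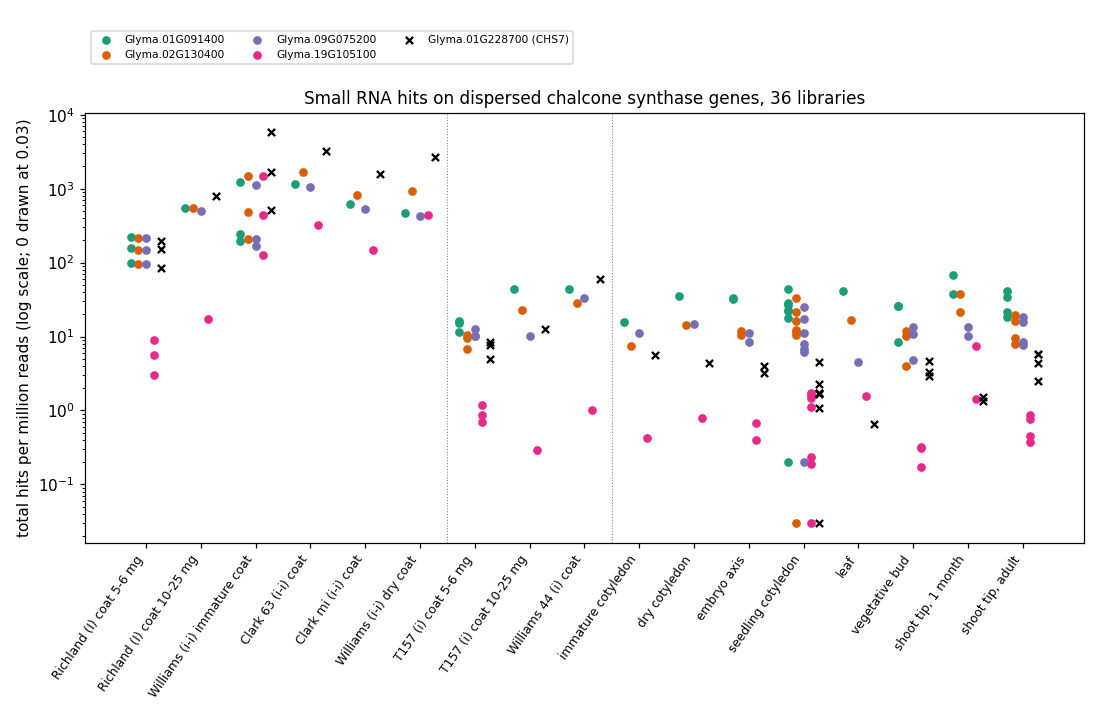
Total hits in RPM (vertical, log scale) of the 4 genes and of CHS7 in each of the 36 libraries, by genotype and tissue (horizontal). 1 point is 1 library, a value of 0 is drawn at 0.03, and dotted lines separate the yellow genotypes' coats, the coats with i and the other tissues; Glyma.19G105100 lies with or near the other genes in Williams coats, below them in Clark coats and far below them in most other libraries.

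The dry mature Williams coat, a single library in no test, kept high levels. It held 465 RPM of Glyma.01G091400, 943 RPM of Glyma.02G130400, 422 RPM of Glyma.09G075200 and 445 RPM of Glyma.19G105100. Each lay inside the range of the 3 immature Williams coats.

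Outside the seed coat all 4 genes had far lower levels in the i-i tissues. Over the 21 libraries Glyma.01G091400 ranged from 0.200 to 67.1 RPM (median 27.0), Glyma.02G130400 from 0 to 37.2 RPM (median 11.9), Glyma.09G075200 from 0.200 to 25.1 RPM (median 10.7) and Glyma.19G105100 from 0 to 7.40 RPM (median 0.681). Without stage 2 the lowest values were 8.52, 3.96, 4.53 and 0.172 RPM. Per kilobase of cDNA the medians over the 21 libraries were 18.0, 8.17, 7.35 and 0.434 RPM. The ranges of Glyma.02G130400 and Glyma.09G075200 overlapped over most of their length, so the order of these neighbours is within the spread.

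By tissue, Glyma.01G091400 was highest in the five-foliate shoot tip from a 1-month plant at 67.1 RPM, against 37.6 RPM in the glabrous tip of that age. Adult tips held 41.3 and 18.1 RPM in standard, 21.7 RPM in five-foliate and 33.8 RPM in glabrous plants, and the pair of standard libraries spanned all 4 values. Leaf held 40.9 RPM, dry cotyledon 35.7 RPM, the embryo axes 33.4 and 31.9 RPM and immature cotyledon 15.8 RPM. Buds held 25.7 RPM in standard, 8.52 RPM in five-foliate and 26.01 RPM in glabrous plants. The spread between the pair of standard adult tips was as wide as any gap between neighbours in the order of the 21 libraries, so the order of these tissues is not resolved.

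Glyma.02G130400 also peaked outside the coat in the 1-month five-foliate tip, at 37.2 RPM, and the glabrous tip held 21.2 RPM. Leaf held 16.7 RPM, dry cotyledon 14.2 RPM, the axes 11.9 and 10.4 RPM and immature cotyledon 7.45 RPM. Adult tips held 8.04 to 19.4 RPM and buds 3.96 to 11.8 RPM, and these ranges overlap. Glyma.09G075200 was highest in stage 7 seedling cotyledon, at 25.1 RPM, and lowest in leaf, at 4.53 RPM, apart from stage 2. It held 14.6 RPM in dry and 11.2 RPM in immature cotyledon, 8.56 and 11.3 RPM in the axes, 4.82 to 13.5 RPM in buds and 7.76 to 18.4 RPM in adult tips.

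Glyma.19G105100 was under 2 RPM in 20 of these 21 libraries. The exception was the 1-month glabrous tip, where 433 hits gave 7.40 RPM, of which 5.95 RPM was sense. The 1-month five-foliate tip held 1.42 RPM and the adult glabrous tip 0.756 RPM. Embryo axes, dry and immature cotyledons and buds held 0.172 to 0.791 RPM, values from 2 to 28 hits.

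In seedling cotyledons, all 4 genes had their highest level at stage 7, the fully green stage, and their lowest at stage 2. Glyma.01G091400 held 22.3, 0.200, 22.6, 17.6, 27.0, 28.3 and 44.0 RPM at stages 1 to 7. Glyma.02G130400 held 11.4, 0, 12.1, 10.4, 16.0, 21.5 and 33.4 RPM. From stage 4 to stage 7 both genes were higher at each stage than at the one before. Glyma.09G075200 held 6.87, 0.200, 6.13, 8.01, 11.3, 17.2 and 25.1 RPM, with the same order from stage 3 on. Glyma.19G105100 held 0.233, 0, 0.188, 1.12, 1.46, 1.61 and 1.73 RPM, and 0 hits at stage 2 allow up to 0.150 RPM. Each stage is 1 library, so no stage was tested.

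Richland coats had more small RNA hits on all 4 genes than T157 coats of the same weight, 5 to 6 mg. For Glyma.01G091400 the log2 fold change of total hits was 3.72 ± 0.40 (± standard error, 3 libraries in each group), with an adjusted p of 1.67e-11. This and the following adjusted p-values come from edgeR's quasi-likelihood test with Benjamini-Hochberg adjustment over all genes tested. The difference was 4.34 ± 0.42 for Glyma.02G130400 (adjusted p = 1.45e-13) and 4.08 ± 0.41 for Glyma.09G075200 (adjusted p = 6.52e-13). It was smallest for Glyma.19G105100, at 2.96 ± 0.44 (adjusted p = 6.93e-07), against 4.69 ± 0.42 for CHS7. All 4 genes were called higher. Of the 10761 genes tested 1.12% were called in either direction and 0.65% were called higher, and in 1.62% every Richland library lay above every T157 library, as it did for all 4 genes. For Glyma.19G105100 the T157 libraries held 9 to 14 hits, and the gene passed the filter on low counts only through Richland. Scaling by library reads in place of TMM moved the median gene from -0.01 to -0.33 and left the 4 genes 2.68 to 4.09 higher, all called.

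By strand, sense hits of Glyma.19G105100 numbered 40, 24 and 41 in Richland and 3, 1 and 1 in T157, and antisense hits 28, 14 and 66 against 8, 13 and 8. T157 was thus at or under the floor of 3 hits on the sense strand, where the gene passed the filter only through Richland. Its fitted log2 fold changes, 4.60 ± 0.61 sense and 2.24 ± 0.49 antisense, are therefore not compared. For Glyma.02G130400 both strands differed alike, by 4.33 ± 0.40 sense and 4.34 ± 0.43 antisense. Glyma.01G091400 differed by 3.88 ± 0.40 and 3.37 ± 0.41, and Glyma.09G075200 by 4.53 ± 0.40 and 3.29 ± 0.41. The 6 differences of these 3 genes passed the adjusted threshold of 0.05 by edgeR's test, and the difference between strands was not tested. Of 6116 genes tested on sense hits 66 were called in either direction and 39 higher. On antisense hits these numbers were 75 and 49 of 5944. Antisense values of Glyma.01G091400 and Glyma.09G075200 may not be separate measurements, as given below.

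Williams coats against Williams seedling cotyledons gave larger differences for Glyma.19G105100 than for the other genes. Total hits were higher in the 3 coats than in the 7 cotyledon libraries by 7.86 ± 1.06 log2 (adjusted p = 8.88e-06), against 8.80 ± 1.05 for CHS7. The differences were 2.95 ± 0.86 for Glyma.01G091400 (adjusted p = 0.0072), 4.01 ± 0.96 for Glyma.02G130400 (adjusted p = 0.00157) and 3.89 ± 0.86 for Glyma.09G075200 (adjusted p = 0.000858). All 4 were called higher, where 47.4% of 16669 genes were called in either direction and 24.5% higher. None overlapped between the groups, but 41.7% of all genes had every coat above every cotyledon, so the calls alone say little about these genes. Without stage 2 the differences were 2.87 ± 0.42, 3.90 ± 0.45, 3.85 ± 0.52 and 7.84 ± 0.76 in the order of the chromosomes, all called. Without the coat of 100 to 200 mg, Glyma.01G091400 was 2.23 ± 1.04 higher and no longer called (adjusted p = 0.0856). Scaling by library reads moved the median gene from 0.02 to 1.61 and the 4 differences to 4.58, 5.58, 5.54 and 9.57, so relative to the median gene the sizes were similar.

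The wider comparison of 5 i-i coats with 21 libraries of other i-i tissues, which shares these Williams libraries, gave the same order of genes. Hits were higher in the coats by 3.56 ± 0.41 log2 for Glyma.01G091400 (adjusted p = 2.03e-07) and by 4.94 ± 0.49 for Glyma.02G130400 (adjusted p = 1.23e-08). They were higher by 4.75 ± 0.40 for Glyma.09G075200 and 7.82 ± 0.65 for Glyma.19G105100 (both adjusted p = 2.91e-10), against 8.73 ± 0.50 for CHS7. The lowest coat held 194 RPM of Glyma.01G091400 against 67.1 RPM in the highest other library. For the other genes these values were 209 against 37.2, 167 against 25.1 and 128 against 7.40 RPM. The 4 genes were called higher, where 9.68% of 20265 genes were called in either direction and 6.15% higher, and 1.08% lay without overlap above the other tissues. Without stage 2 the differences were 3.35, 4.71, 4.57 and 7.56, all called. Two-sided exact permutation tests of log2(RPM + 0.1) gave p = 1.52e-05 for each gene, the smallest value that 65780 arrangements allow.

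Sense and antisense hits were also fitted separately in this comparison. Antisense hits of Glyma.01G091400 and Glyma.09G075200 were higher in the i-i coats by 4.33 ± 0.37 and 4.31 ± 0.37 log2. These antisense values are nearly the same and may not be separate measurements, as given below. Sense hits of these genes were higher by 3.27 ± 0.51 and 5.35 ± 0.57. For Glyma.02G130400 the sense difference was 4.70 ± 0.51 and the antisense difference 5.97 ± 0.57. For Glyma.19G105100 they were 8.93 ± 0.90 and 6.46 ± 0.71. Outside the coats Glyma.19G105100 had 0 to 15 sense hits, apart from 348 in the 1-month glabrous tip, so its strand values are not compared. All 8 passed the adjusted threshold by edgeR's test, and the difference between strands was not tested. Of 12011 genes tested on sense hits 1167 were called in either direction and 746 higher. On antisense hits these numbers were 1135 and 785 of 11097.

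**Figure D2:**
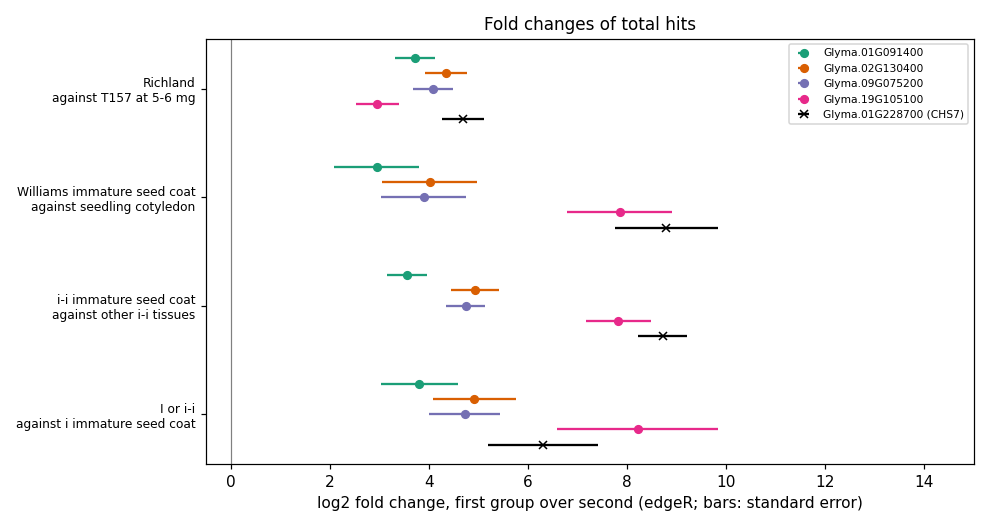
Log2 fold change of total hits (horizontal, points with bars of 1 standard error, edgeR) for the 4 genes and CHS7 in the 4 comparisons (vertical). Of the 4 genes Glyma.19G105100 lies closest to CHS7 in both tissue comparisons, at 7.86 and 7.82. It lies lowest of the 5 genes in Richland against T157, at 2.96, where T157 libraries held 9 to 14 hits on it. There it passed the filter on low counts only through Richland.

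Among all immature coats, 9 with I or i-i and 5 with i, Glyma.02G130400 and Glyma.09G075200 were called. Glyma.19G105100 also passed the threshold, but with the limits on its filter and on left-out libraries given below. The immature coats include the Richland, T157 and i-i libraries of the comparisons above, so the results are not independent of them. Hits were higher with I or i-i by 4.92 ± 0.84 log2 for Glyma.02G130400 (adjusted p = 0.0211), by 4.72 ± 0.72 for Glyma.09G075200 (adjusted p = 0.00598) and by 8.21 ± 1.62 for Glyma.19G105100 (adjusted p = 0.0471). For Glyma.01G091400 the estimate was 3.81 ± 0.77 and missed the threshold (adjusted p = 0.0581). In this comparison 0.208% of 17303 genes were called in either direction and 0.15% higher, and 0.196% did not overlap, among them all 4 genes. Glyma.19G105100 passed the filter on low counts only through the higher group, with 7 to 27 hits in the libraries with i. The call of Glyma.19G105100 was lost when any 1 of the 5 libraries with i was left out (adjusted p 0.182 to 0.275), that of Glyma.02G130400 without Williams 44 or any of the 3 small-seed T157 libraries, and that of Glyma.09G075200 without any of the 3. Two-sided exact permutation tests of log2(RPM + 0.1) gave p = 0.0005 for each of Glyma.01G091400, Glyma.02G130400 and Glyma.09G075200, the smallest that 2002 arrangements allow, and p = 0.002 for Glyma.19G105100. Hits on the storage and late embryogenesis list were 56.8 to 297 RPM with I or i-i and 94.2 to 167 RPM in T157, but 725 RPM in Williams 44, and their part in the result was not tested.

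Strand composition set Glyma.19G105100 apart within the coats that carry i-i. In Williams it was mostly sense, with an antisense share of 11.7, 10.3 and 11.6% in the coats of 100 to 200, 400 to 500 and 200 to 300 mg and 13.1% in the dry coat. In Clark 63 the antisense share was 88.2% (exact Clopper-Pearson 95% interval 87.4 to 88.9, counting error only) and in Clark mi 86.1% (84.8 to 87.3). The Clark coats therefore held more antisense hits than sense hits, 287 against 38.5 RPM in Clark 63 and 129 against 20.7 RPM in Clark mi, while the Williams coat of 100 to 200 mg held 176 against 1330 RPM. Williams and Clark coats share i-i but differ in cultivar and in seed weight, which cannot be told apart here. The Richland coats lay between, at 41.2, 36.8 and 61.7% antisense at 5 to 6 mg and 42.0% at 10 to 25 mg, from 38 to 362 hits.

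The other 3 genes showed no such contrast between Williams and Clark. The antisense share of Glyma.02G130400 was 23.3 to 32.9% in the 3 Williams coats, 28.2% in Clark 63, 28.8% in Clark mi and 20.8 to 30.5% in Richland. That of Glyma.01G091400 was 33.2 to 36.3% in Williams, 43.0% in Clark 63, 40.1% in Clark mi and 24.3 to 30.1% in Richland. Glyma.09G075200 had 36.8 to 43.4, 46.3, 45.9 and 25.6 to 29.0% in the same order.

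In the Williams 44 coat, which carries i, Glyma.02G130400 had 763 sense hits and 2 antisense hits, an antisense share of 0.261% (95% interval 0.0317 to 0.941). CHS7 had 1616 and 3. Glyma.01G091400 and Glyma.09G075200 instead had 373 antisense hits each, shares of 31.5% (28.8 to 34.2) and 42.6% (39.3 to 46.0). Glyma.19G105100 had 26 sense hits and 1 antisense hit. In T157, whose coat is imperfect black, all 4 genes had hits on both strands. The antisense share at 5 to 6 mg was 25.0 to 50.4% for Glyma.01G091400, 25.2 to 34.1% for Glyma.02G130400, 37.2 to 58.3% for Glyma.09G075200 and 72.7 to 92.9% for Glyma.19G105100, the last from 9 to 14 hits. In the larger T157 seeds it was lower for Glyma.01G091400, at 8.88% (95% interval 7.25 to 10.7), and for Glyma.02G130400, at 9.04% (6.81 to 11.7), below all 3 small-seed libraries. There Glyma.09G075200 had 38.4% and Glyma.19G105100 had 3 of 7 hits antisense.

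Outside the coats Glyma.09G075200 had at least as many antisense as sense hits except in seedling cotyledons of stages 6 and 7. Its antisense share was 91.4% in leaf (95% interval 84.4 to 96.0), 82.4 and 87.8% in the embryo axes, 78.8% in dry and 61.1% in immature cotyledon. It was 50.0 to 66.4% in buds and 50.9 to 63.4% in adult tips. In seedling cotyledons it was 84.3% at stage 1 and 79.1% at stage 3, and 44.7 and 41.5% at stages 6 and 7. Sense hits of the gene were 1.08 RPM at stage 1 and 14.7 RPM at stage 7, while antisense hits were 5.79 and 10.4 RPM.

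Glyma.02G130400 had mostly sense hits in each of these tissues, apart from stage 2, where it had none. Its antisense share was 3.09% in leaf, 5.31 and 5.11% in the axes and 6.38 and 2.33% in seedling cotyledons of stages 1 and 3, and 25.3 and 24.4% at stages 6 and 7. It was 9.54% in dry and 20.8% in immature cotyledon, 15.4 to 31.3% in buds, 7.86 and 10.4% in the 1-month tips and 13.5 to 27.9% in adult tips, so in several tissues it reached the range of the yellow coats. Antisense hits of the gene went from 0.728 RPM at stage 1 to 8.14 RPM at stage 7. Glyma.19G105100 was almost wholly antisense in the later stages, with 41 of 42 hits at stage 5, 34 of 35 at stage 6 and 59 of 60 at stage 7, and with 35 of 36 hits in leaf. In the embryo axes it had 1 of 14 and 2 of 17 hits antisense, and in the 1-month glabrous tip 85 of 433. Buds and adult tips held 2 to 9 hits, too few to give a share.

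**Figure D3:**
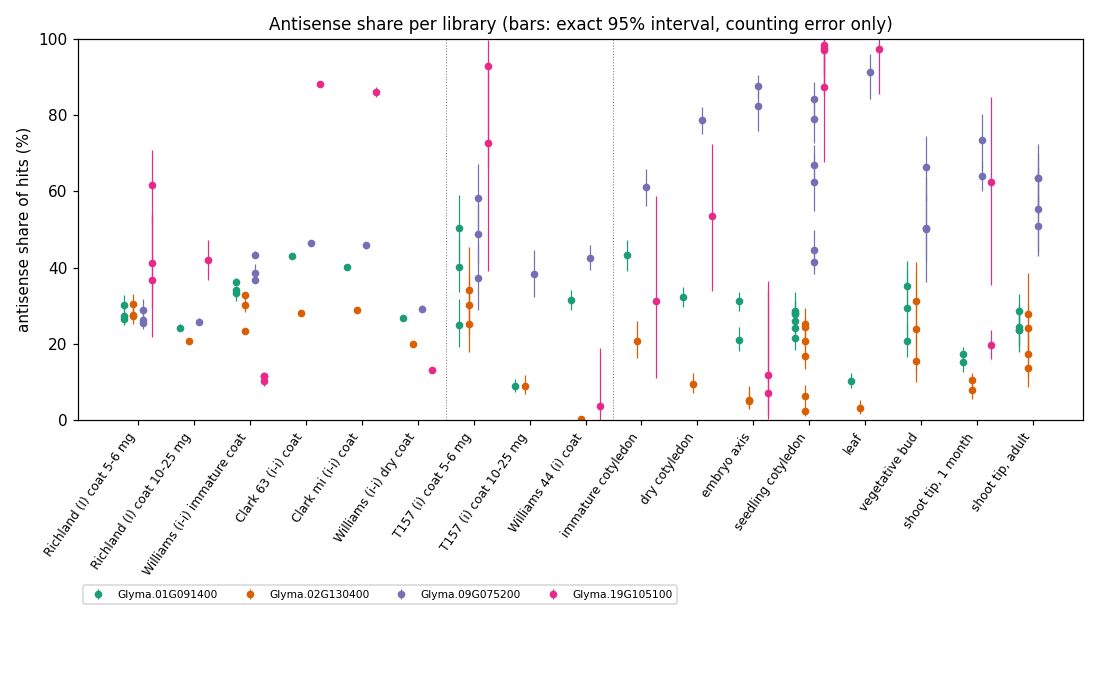
Antisense share of hits in percent (vertical) for each gene in each library with at least 10 hits on it, by genotype and tissue (horizontal). Bars are exact 95% intervals for counting error, and points of Glyma.19G105100 lie at 10.3 to 13.1% in Williams coats but at 86.1 and 88.2% in Clark coats.

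The antisense counts of Glyma.01G091400 and Glyma.09G075200 were nearly the same number in library after library. They were equal in 16 of 36 libraries and within 5% of each other in 33 of 36, with 42570 and 41667 antisense hits over the series. Across the 36 libraries log2 antisense levels correlated with Pearson's r = 0.9999, a description over libraries that share depth and tissue. Their sense counts were equal only in stage 2, where both were 0, and were within 5% in 4 libraries. In leaf, for instance, both genes had 96 antisense hits, but Glyma.01G091400 had 851 sense hits and Glyma.09G075200 had 9. Whether the same reads were counted for both genes was not tested, so their antisense values may not be separate measurements.

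**Figure D4:**
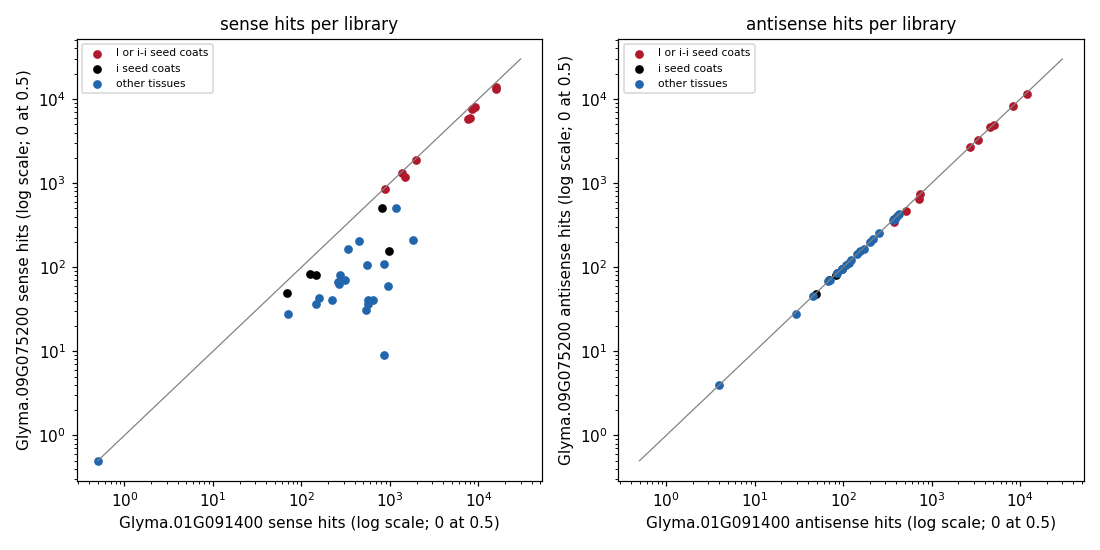
Hits of Glyma.09G075200 (vertical) against hits of Glyma.01G091400 (horizontal) in 36 libraries, sense on the left and antisense on the right, on log scales with 0 drawn at 0.5 and the grey line at equality. Antisense points lie on or close to the line, and sense points lie below it in every library apart from stage 2. The dry coat is among the I or i-i seed coats.

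Other pairs of genes correlated closely on the sense or the antisense strand. Sense hits of Glyma.01G091400 were within 5% of those of Glyma.05G153200, a chalcone synthase gene outside the list, in 18 of 36 libraries (r = 0.9995), whereas their antisense hits were within 5% in 1 library. Sense hits of Glyma.09G075200 correlated most with those of Glyma.08G109400 on chromosome 8 among the genes paired (r = 0.9976), but were within 5% in only 6 libraries. Antisense hits of Glyma.02G130400 correlated most with those of Glyma.05G153200 (r = 0.9969), but were within 5% in only 2 libraries.

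Total levels showed the same neighbours. Over 36 libraries and 24987 candidate genes, the genes with the most similar log2(RPM + 0.1) to Glyma.01G091400 were Glyma.05G153200 (r = 0.997), Glyma.02G130400 (0.989) and Glyma.09G075200 (0.958). For Glyma.02G130400 they were Glyma.05G153200 (0.989), Glyma.01G091400 and Glyma.09G075200 (0.975), and for Glyma.09G075200 the chromosome 8 genes Glyma.08G109300, Glyma.08G110901 and Glyma.08G109400 (each 0.982). The best genes outside chalcone synthase reached 0.854 for Glyma.01G091400 (Glyma.03G086000, heavy metal ATPase 5) and 0.879 and 0.915 for the other genes just named (Glyma.17G258600, a thaumatin-like protein). On total hits Glyma.19G105100 had no family member among its 3 nearest genes. They were Glyma.13G357632, a group 2 late embryogenesis abundant protein (0.942), Glyma.01G038600, a myb-like transcription factor (0.932), and Glyma.18G174900, which has no description (0.928). On antisense hits its nearest gene was Glyma.03G003400, ABA-responsive element binding protein 3 (0.9245). The family members Glyma.02G130400 (0.9219) and Glyma.05G153200 (0.9116) followed.

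Relative to CHS7, 3 of the 4 genes were low in i-i coats and high in other tissues. Per kilobase of cDNA, Glyma.01G091400 had 0.145 to 0.398 times the CHS7 hits in the 5 i-i coats. It had 2.79 to 62.5 times in the 20 other libraries in which CHS7 had a hit, with a median of 9.004. Glyma.02G130400 had 0.257 to 0.538 times in the coats and 1.35 to 28.5 times elsewhere, and Glyma.09G075200 had 0.126 to 0.348 and 1.68 to 10.5 times. These ranges put each of the 3 genes below CHS7 in the coats and above it elsewhere. CHS7 itself was higher in the coats by 8.73 ± 0.50 log2, so a gene that changed less could cross it in the same way. The share of all genes with this pattern was not computed, and the pattern alone says little about these genes. Glyma.19G105100 had 0.0904 to 0.246 times in the coats and 0.0556 to 4.60 times elsewhere, with overlap, and was above CHS7 in leaf and in both 1-month tips.

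The ratio of each gene to CHS7 plus CHS8 was tested with two-sided exact permutation tests of log2 ratios (pseudocount 0.1 RPM), adjusted by Benjamini-Hochberg over 8 tests. Between i-i coats and other i-i tissues the mean log2 ratio was lower in the coats by 5.16 for Glyma.01G091400 (-2.84 ± 0.64 against 2.32 ± 1.12, SD, n = 5 and 21). It was -2.38 ± 0.49 against 1.26 ± 1.26 for Glyma.02G130400, and -3.04 ± 0.64 against 0.99 ± 0.76 for Glyma.09G075200. Each gave an adjusted exact p of 4.05e-05, from the smallest p these arrangements allow, with 5 of 5 coats below all 21 other libraries. CHS7 and CHS8 themselves were higher in the coats by 8.73 and 8.78 log2, against a median of -0.19 over all genes tested. Any gene that rose less than they did has a lower ratio in the coats. The p-values and the separation therefore say little about the genes tested. The share of all genes with such a ratio was not computed. For Glyma.19G105100 the means were -3.51 ± 0.76 and -2.58 ± 1.76, a difference of -0.93 (adjusted exact p = 0.309), and with a pseudocount of 1 RPM the difference was -1.80 (adjusted exact p = 0.00815). Without stage 2 the differences were -5.19 for Glyma.01G091400, -3.71 for Glyma.02G130400, -3.999 for Glyma.09G075200 and -0.80 for Glyma.19G105100.

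Between coats with I or i-i and coats with i the ratio differed for 1 of the 4 genes. Glyma.01G091400 had a mean log2 ratio of -2.03 ± 1.08 with I or i-i (n = 9) and -0.06 ± 0.92 with i (n = 5). The difference was -1.98 (adjusted exact p = 0.014), with 6 of 9 libraries below every library with i. CHS7 itself was higher with I or i-i by 6.31 ± 1.11 log2. The share of all genes with a lower ratio was not computed, so the difference alone says little about the gene. The differences of -1.02 for Glyma.02G130400 (adjusted exact p = 0.0659) and -1.38 for Glyma.09G075200 (adjusted exact p = 0.0567) missed the threshold, which both passed with a pseudocount of 1 RPM. For Glyma.19G105100 the difference was 0.25 (adjusted exact p = 0.743), and it turned to -0.67 with a pseudocount of 1 RPM. In the 5 to 6 mg Richland coats, Glyma.01G091400 had 1.01, 1.14 and 1.13 times the hits of CHS7 per kilobase, above every coat with i-i, and 0.663 times in the 10 to 25 mg coat. Glyma.19G105100 had 0.0203 to 0.0431 times in the 4 Richland coats, below every coat with i-i.

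**Figure D5:**
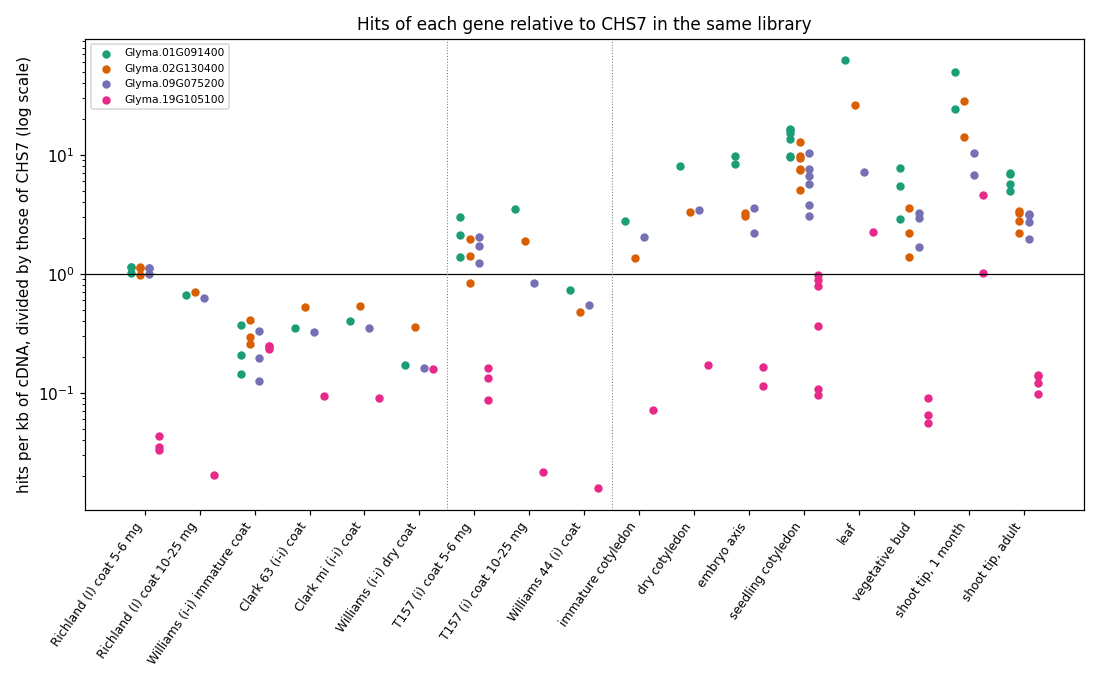
Hits per kilobase of cDNA of each gene divided by those of CHS7 in the same library (vertical, log scale, line at 1), by genotype and tissue (horizontal). 1 point is 1 library, and libraries with no hit on the gene or on CHS7 are not drawn; 3 genes lie under the line in i-i coats and above it in all other i-i tissues, up to 62.5 in leaf.

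Other genes of the family moved with the 4 genes. Of 19 further genes described as chalcone synthase, 15 were tested in Richland against T157 and 15 were called higher, where 0.65% of all genes were, with a median of 4.41 log2 against -0.01 over all genes tested. In the same direction, 15 of 15 were called between Williams coats and seedling cotyledons, where 24.5% of all genes were (median 4.93 against 0.02). Between i-i coats and other tissues 15 of 16 were called, beside 6.15% of all genes (median 5.61 against -0.19), and between I or i-i and i coats 15 of 17, beside 0.15% (median 5.44 against -0.09). None was called lower. Reads shared with the 4 genes can enter these counts.

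Of 56 genes named for other flavonoid steps, none was called by edgeR or DESeq2 in Richland against T157 (11 tested, median 0.31 log2 against -0.01 over all genes) or between I or i-i and i coats (18 tested, median -0.47 against -0.09). At an unadjusted p under 0.05 there were 3 and 0 such genes by edgeR. Between Williams coats and seedling cotyledons 4 of 16 were called higher and 7 lower (median -1.23 against 0.02). As 24.5% of all genes were called higher and 47.4% in either direction, the count of higher genes is near the background. Phenylalanine ammonia-lyase Glyma.20G180800, which opens the phenylpropanoid pathway, changed by -5.24 ± 0.83 log2 in the coats (adjusted p = 3.75e-05), and 4-coumarate:CoA ligase Glyma.11G010500, which supplies the coumaroyl substrate of chalcone synthase, was higher by 3.08 ± 0.58 (adjusted p = 0.000199). Between i-i coats and other tissues 3 of 20 were called higher and 2 lower (median -0.29 against -0.19), beside 6.15% of all genes higher and 9.68% in either direction. The flavanone 3-hydroxylases Glyma.02G048600 and Glyma.02G048400, which act 2 steps after chalcone synthase, were higher by 3.12 ± 0.88 and 3.06 ± 0.86 (adjusted p = 0.0247 and 0.0248).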

How the data were processed

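The deposited strand table lists 86256 transcript models with unnormalized counts, per the file headers: total and unique hits, sense and antisense, in each library. The second table holds CHS7 and CHS8 counts, the reads of each library and RPM that the authors computed from them. Both tables gave equal CHS7 and CHS8 counts in 36 of 36 libraries. The submitters' processing notes name Bowtie 1. How a unique hit was defined, which read lengths were kept, and how many mismatches were allowed were not stated. The labels name 2 kits and 2 sequencer models but not which library used which, so no such batch was fitted.

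Each gene was represented by its lowest splice form, sense and antisense hits were summed, and levels were hits divided by the authors' read totals (M). Comparisons used edgeR 4.0.16 (quasi-likelihood F test, TMM, filterByExpr with minimum count 10 and total 15) in R 4.3.3, and calls were made at 0.05 after Benjamini-Hochberg adjustment across every gene tested. All 4 genes passed the filter in each comparison. In the lower group Glyma.19G105100 was over it in 2 of 3 libraries of T157, 3 of 5 with i, 4 of 7 seedling cotyledons and 13 of 21 of other tissues. Standard errors are the log2 fold change over the square root of F. Exact permutation tests were two-sided (Python 3.11.15, scipy 1.17.1, numpy 2.4.6, pandas 2.3.3). Figures used matplotlib 3.10.9. DESeq2 1.42.0, other scalings, filters, strands, pseudocounts and left-out libraries were alternatives. The tests were checked on simulated data. Counts of libraries with the same label differed by 65.9 to 86.1 times the counting variance, so they were not 1 set of reads deposited again; whether they are technical replicates was not tested.

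The genes, lists and rules were chosen with earlier results of these data known. Named were the 4 genes, CHS7 and CHS8, the 3 genes most alike over genes with 10 or more hits in 5 or more libraries, the best gene outside the family and, per pathway list, the 2 genes with the smallest p. Glyma.05G153200 and Glyma.08G109400 were added after likeness was seen. Richland and T157 libraries share replicate numbers in their titles, which mark no stated pairing. Positions and sequences of the genes were not used here.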

Additional observations from a re-analysis of the deposited data

Results flagged for a closer look

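Among 40 sets (5 groups, 4 genes, 2 strands), single libraries stood far from the rest of their group in the following cases. The rule is set for a gap by chance in about 1 in 20 groups of normally distributed values. It was applied to RPM without a log scale, where such gaps can be more frequent. The i-i coats are also part of the group of coats with I or i-i. In the Williams coat of 100 to 200 mg, sense hits of Glyma.19G105100 were 1330 RPM, far above both the other i-i coats and the other coats with I or i-i. In Williams 44, among the 5 coats with i, Glyma.01G091400 and Glyma.09G075200 each had 14.02 RPM of antisense hits, the same number of hits. That library was also highest for sense hits of Glyma.09G075200, at 18.9 RPM, and of Glyma.19G105100, at 0.977 RPM. Stage 4 seedling cotyledon was highest for sense hits of Glyma.19G105100, at 0.141 RPM, a value from 3 hits.

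The dry Williams seed coat entered no comparison and lay above every coat with i for all 4 genes. It had 465 RPM of Glyma.01G091400, 943 RPM of Glyma.02G130400, 422 RPM of Glyma.09G075200 and 445 RPM of Glyma.19G105100. It is 1 library, and the share of all genes for which it lay above every coat with i was not computed.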

How the results depend on the processing

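Of 252 combinations of a result on a gene with an alternative, 223 kept direction and side of the threshold, 21 lost the call, 7 gained one and 1 reversed. The cause was not tested. The reversal was the ratio of Glyma.19G105100 to CHS7 plus CHS8 between genotypes, at -0.67 with pseudocount 1 RPM. With that pseudocount the genotype ratios of Glyma.02G130400 (-1.05, adjusted exact p = 0.0497) and Glyma.09G075200 (-1.41, 0.0426) and the tissue ratio of Glyma.19G105100 (-1.80) passed. For I or i-i against i, Glyma.01G091400 passed with DESeq2 (3.75) and with exact permutation tests at pseudocounts 0.1 and 1 (3.95 and 3.89). Without the low-count filter Glyma.02G130400 (4.98), Glyma.09G075200 (4.69) and Glyma.19G105100 (8.27) were not called. Glyma.09G075200 was not called on antisense hits (4.17), nor Glyma.19G105100 on reads as library size (8.47), unique (8.38), sense (9.08) or antisense hits (7.00).

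Leaving out 1 library with i, the estimates ranged from 3.56 to 4.24 for Glyma.01G091400 (gained without T157 of 10 to 25 mg, adjusted p = 0.0489), 4.65 to 5.22 for Glyma.02G130400, 4.40 to 4.89 for Glyma.09G075200 and 7.91 to 8.34 for Glyma.19G105100. Leaving out 1 library of Williams coats or seedling cotyledons gave 2.23 to 3.37 for Glyma.01G091400.

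Genes called in Richland against T157 numbered 121 (70 higher, 51 lower), 66 on sense and 75 on antisense hits, and 121 on reads as library size (47 higher, 74 lower). Williams coats against seedling cotyledons gave 7908 (4078 higher, 3830 lower), 12812 without a filter, 5045 sense, 4634 antisense and, on reads, 7232 (6348 higher, 884 lower). The i-i coats against other tissues gave 1962 (1247 higher, 715 lower), 4423 with DESeq2 (1272 higher, 3151 lower), 1198 on reads (1127 higher, 71 lower), 5389 without a filter, 1167 sense, 1135 antisense and 672 to 2389 with 1 library left out. I or i-i against i gave 36 (26 higher, 10 lower), 82 with DESeq2 (74 higher, 8 lower), 15 on reads, 13 without a filter, 21 sense, 20 antisense and 13 to 28 with 1 library left out. Leaving out any 1 of the 5 i-i coats in the former, or any library with i but T157 of 10 to 25 mg in the latter, moved the count by over 1.5 times.

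With the replicate block in Richland against T157 the 4 genes were 3.74, 4.36, 4.07 and 2.90 higher and 89 genes were called. Same-numbered libraries did not deviate together (correlations -0.22, -0.15 and -0.16), and none correlated best with its own number. With so few libraries in each group this check cannot exclude a pairing.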
